A study of Arabidopsis thaliana with 4 samples.

Results

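The CC-type glutaredoxins are a plant-specific class of small thiol oxidoreductases, named for the paired cysteines at their active site, and the set described here was given as 8 loci: AT5G18600, the 5 genes AT4G15660, AT4G15670, AT4G15680, AT4G15690 and AT4G15700, and AT3G62950 and AT2G30540. The platform annotation assigned a probe set of its own to 7 of the 8, out of 13355 genes with such a probe set on the array, and none of the 8 shared a probe set with another gene. AT4G15670 had no probe set assigned in the annotation used and was not analysed here. AT5G18600 was included because of its fall between the groups compared here, and the set was drawn up with results of these arrays known. The sucrose against sorbitol values of the 7 genes are therefore a description and no test is read from them.

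Glutaredoxins use glutathione to reduce or exchange disulfides. Unlike the CPYC and CGFS classes, which are shared with other organisms, CC-type proteins are known in Arabidopsis mainly as partners of TGA transcription factors in flower development and defence, and several of them respond to nitrate and to nitrogen demand. The 5 chromosome 4 genes followed each other with no other protein-coding gene between them in the TAIR10.1 gene order, as a tandem cluster.

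RNA came from source leaves, the full-grown leaves of non-flowering wild-type Arabidopsis thaliana, ecotype Col-0. Leaves were cut when the 14 h day ended (night 10 h), and their petioles stood in the dark for 13 h in 2 mM MES buffer with 100 mM sorbitol, the control, or 100 mM sucrose. Each group had 2 Affymetrix ATH1 arrays, numbered 1 and 2 in the labels, which do not say whether the 2 came from separate plants, so the spread between them may be technical. Leaves that had not been incubated were not among the samples, so higher and lower below are relative to sorbitol-fed leaves. Values are the deposited MAS5 intensities, 1 per probe set and array.

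Across the 4 arrays, which share one trimmed mean by scaling, median intensities were 30.6 to 35.6. Of 9 mesophyll marker genes 5 had a probe set, all 5 were bright, and their summed intensity was 15200 to 17052 in sorbitol and 4303 to 6757 in sucrose. All 5 were lower on both sucrose arrays, as were 22.9% of all probe sets and 3570 of the 13648 probe sets tested. PSAN and PRK, with log2 changes of -2.26 and -2.28, passed just under the threshold of 0.05 (limma adjusted p = 0.0497 and 0.0487). Of the probe sets tested, 0.923% passed as lower. RCA, SBPASE and LHCB4.1 did not pass, with changes of -1.61, -1.75 and -1.01 (limma adjusted p = 0.0941, 0.0816 and 0.143). One of 5 guard cell markers had a probe set (37.0 to 55.6 over the arrays), and none of the listed epidermis, phloem or xylem markers had one assigned in the annotation used. The part of cell makeup in the glutaredoxin values was not tested, and in whole leaves fewer cells of a type and less RNA per cell cannot be told apart. For one of the GAPDH controls on the array, the log2 excess of the 3 prime over the 5 prime probe set, a measure of RNA integrity, was 0.20 log2 units on sucrose 2 and 1.43 to 1.85 on the other arrays, and its part was not tested either.

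AT5G18600 was bright in sorbitol-fed leaves and dim in sucrose-fed ones. Its probe set, 249996_at, read 1313 on sorbitol 1 and 722.5 on sorbitol 2, against 19.2 on sucrose 1 and 47.8 on sucrose 2. Both sucrose values lay far below both sorbitol values: the sorbitol arrays differed from each other 1.82-fold and the sucrose arrays 2.49-fold, whereas the geometric means of the groups differed 32.2-fold. On the log2 scale the level was 9.93 ± 0.61 (SD, n = 2) in sorbitol and 4.92 ± 0.93 in sucrose. The change was -5.01 ± 0.53 (SE). Here and below, the SE is that of the limma fit, which draws also on the spread of the other probe sets tested.

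The size of that change differed between the replicate numbers. AT5G18600 was 68.4-fold lower in sucrose among the arrays numbered 1 and 15.1-fold lower among those numbered 2, log2 changes of -6.10 in this pair 1 and -3.92 in pair 2. Sorbitol 1 was the brightest and sucrose 1 the dimmest of the 4, so the first pair was wider at both ends. Within each array, the same probe set stood at percentile 98.4 of all probe sets on sorbitol 1 and 96.1 on sorbitol 2, and at percentile 40.5 on sucrose 1 and 56.8 on sucrose 2. A rank within an array is not moved by that array's scaling.

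All 4 readings of AT5G18600 lay above 9.3, the highest intensity that any of 27 probe sets for Bacillus control transcripts reached, a level used below as the control level. It was the 1 gene among the 7 of which this held, and also the 1 bright enough on average (18.6 or more) to enter the fit over 13648 probe sets. It was counted as lower there, where 0.923% of probe sets were lower at a limma adjusted p under 0.05, and nothing is read from this because the gene was chosen on that contrast. Its change was the second most negative of the probe sets tested, after AT2G29290 with -5.15. A probe set without an annotated gene came next, with -4.99. This rank is likewise only described, because AT5G18600 was included for its fall.

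**Figure D1:**
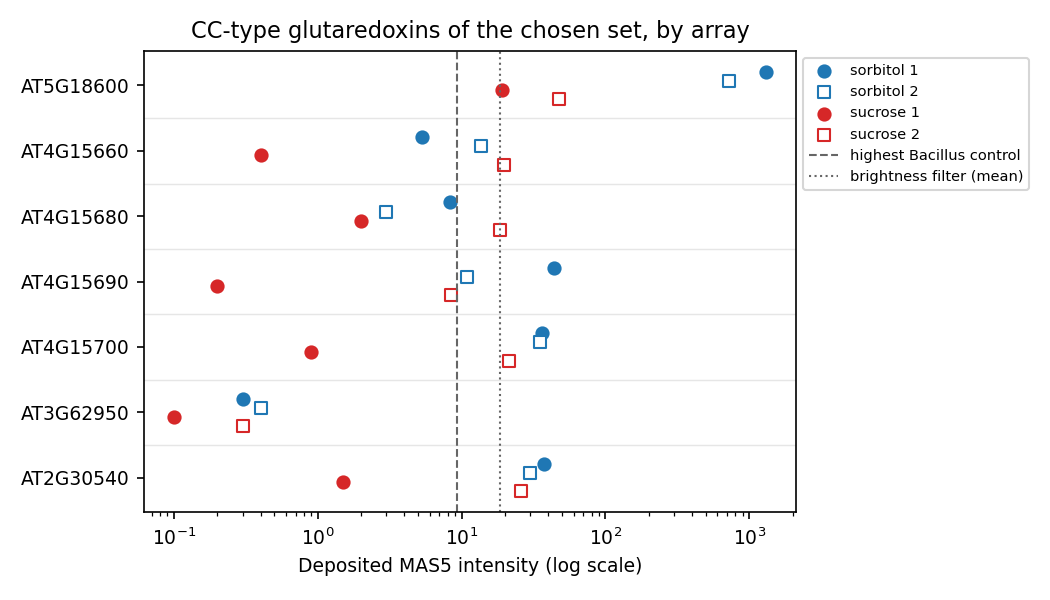
Deposited MAS5 intensity on a log axis for the 7 glutaredoxins, 1 point per array (blue sorbitol, red sucrose, filled circles replicate 1, open squares replicate 2), with the control level of 9.3 dashed and the brightness filter of 18.6, which applies to a probe set's mean, dotted. AT5G18600 reaches 1313 and 722.5 in sorbitol, and the other 6 genes stay at or below 43.6 on every array.

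The other 6 glutaredoxins were dim in both groups, at 43.6 or less on every array. None passed the brightness filter, so they have no fitted error, and a log2 change computed from readings near 0 has little meaning for them. Of these, AT4G15690, AT4G15700 and AT2G30540 were above the control level on both sorbitol arrays, and both sucrose readings of each were below both sorbitol readings. Of the 9098 probe sets below the filter, 18.1% were likewise lower on both sucrose arrays. AT4G15660, AT4G15680 and AT3G62950 had overlapping groups. With AT5G18600, 4 of the 7 thus had sucrose below sorbitol without overlap and 0 had the opposite, against 22.9% and 21.1% of all 22746 probe sets. Because the set was chosen with this contrast known, nothing is read from that count.

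In the chromosome 4 cluster AT4G15690 read 43.6 and 10.9 in sorbitol and 0.2 and 8.4 in sucrose, in the order of the replicate numbers. Its neighbour AT4G15700 read 36 and 35.1 in sorbitol and 0.9 and 21.3 in sucrose. For both genes the low value in sucrose was mainly that of sucrose 1, while sucrose 2 lay within 1.65-fold of sorbitol 2.

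AT4G15660 read 5.3 and 13.7 in sorbitol against 0.4 and 19.7 in sucrose, and AT4G15680 read 8.3 and 3.0 against 2.0 and 18.4. Both were below the control level in pair 1 and had their highest reading on sucrose 2. As read, the 4 measured genes of the cluster did not share a direction in pair 2. AT4G15690 on sucrose 2 and AT4G15680 on sorbitol 2 were below the control level, so no difference between the genes is read from this. Close paralogues can bind the same probes, and how well these probe sets tell the cluster genes apart was not tested.

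Outside the cluster, AT2G30540 on chromosome 2 read 37.1 and 29.9 in sorbitol and 1.5 and 25.9 in sucrose. AT3G62950 on chromosome 3 read 0.3 and 0.4 in sorbitol and 0.1 and 0.3 in sucrose. Its 4 readings were all far below the control level, so no level and no change can be given for AT3G62950 in these leaves, in either group.

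With every reading below 9.3 raised to that value, the group changes of AT4G15690, AT4G15700 and AT2G30540 became -1.23, -1.34 and -1.10 on the log2 scale, in place of -4.07, -3.02 and -2.42 from the readings as deposited. The raised changes of AT4G15690 were -2.23 in pair 1 and -0.23 in pair 2. Those of AT4G15700 were -1.95 and -0.72, and those of AT2G30540 -2.00 and -0.21. Without sucrose 1 the changes from the deposited readings were -1.38, -0.74 and -0.36, so 1 array set most of their size. The same array gave the lowest reading of all 7 glutaredoxins, and of 25.6% of all probe sets and 36.7% of the 9098 probe sets below the brightness filter. AT5G18600 kept a change of -4.35 without sucrose 1. Raising dim readings could not move its change of -5.01, since it had no reading below 9.3.

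**Figure D2:**
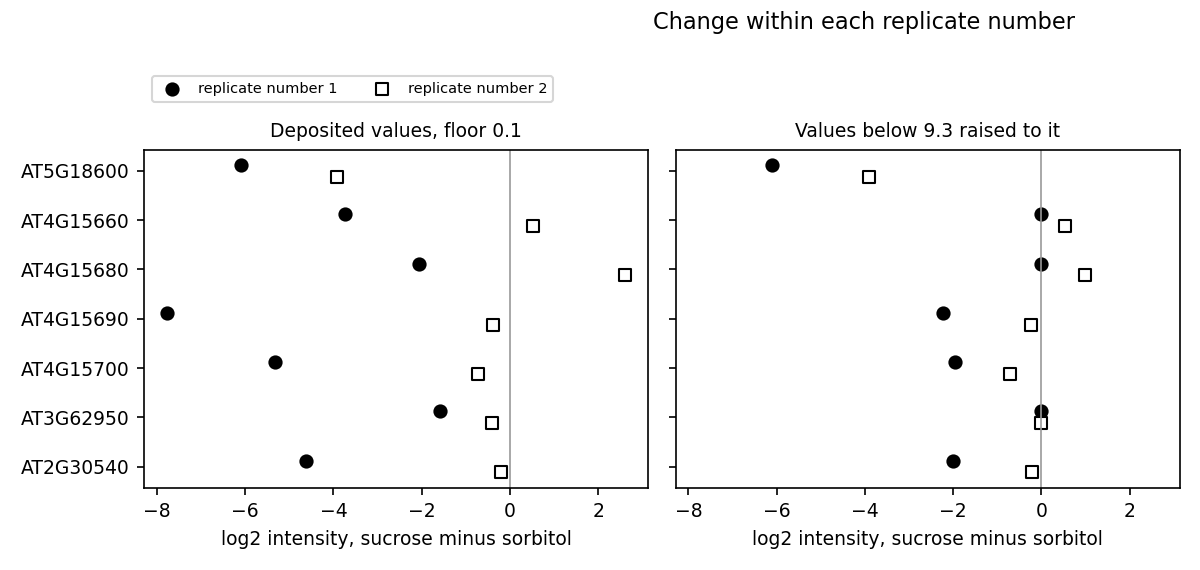
Log2 intensity in sucrose minus that in sorbitol, within replicate number 1 (filled circles) and 2 (open squares), for the 7 glutaredoxins, from the deposited readings with a floor of 0.1 (left) and with readings below 9.3 raised to it (right). AT5G18600, with no reading below 9.3, stays at -6.10 and -3.92 in both panels, whereas the pair 1 points of the dim genes move to between -2.23 and 0.

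AT4G15690, AT4G15700 and AT2G30540 had the same order of arrays as AT5G18600. From high to low it was sorbitol 1, sorbitol 2, sucrose 2 and then sucrose 1. Outside the chosen set, 1 other CC-type glutaredoxin also had it, AT3G62930, with 1 reading above the control level. Of all probe sets 4.51% had this order, and 5.1% of those below the brightness filter. That 3 of the 6 dim genes had it is a small count, from readings that partly lay below the control level, and the set was chosen with these readings known.

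The genes nearest to AT5G18600 in pattern were taken as those with the smallest root mean square difference between log2 values over the 4 arrays, each gene centred on its own mean, among 7354 tested probe sets with a single gene. With 4 arrays and so large a change, this measure mainly finds other large falls in sucrose. The nearest was AT4G27450, at a difference of 0.36 log2 units, which read 565.9 and 184.5 in sorbitol and 7.8 and 23.7 in sucrose. AT4G27450 had the order of arrays of AT5G18600 and, like it, a wider first pair, at -6.18 against -2.96. Its reading of 7.8 lay below the control level, and with it raised to 9.3 the change in pair 1 was -5.93. AT2G29290, AT5G59080, AT1G49200 and AT4G33666 followed at 0.58, 0.58, 0.60 and 0.73.

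The remaining 5 were AT3G15450, AT5G02160, AT2G20670, AKINBETA1 and AT3G22210, at 0.81 to 0.88. AKINBETA1, which encodes a beta subunit of SnRK1, the energy-sensing kinase, read 362.4 and 211.0 in sorbitol and 23.3 and 29.4 in sucrose. AT3G22210 had a larger change in pair 2 than in pair 1 (-4.54 against -3.73), unlike AT5G18600, and AT2G29290 had nearly equal ones (-5.16 and -5.14). No other glutaredoxin was among the 10. The other 6 of the chosen set lay below the brightness filter and could not have been, so nothing is read from their absence.

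**Figure D3:**
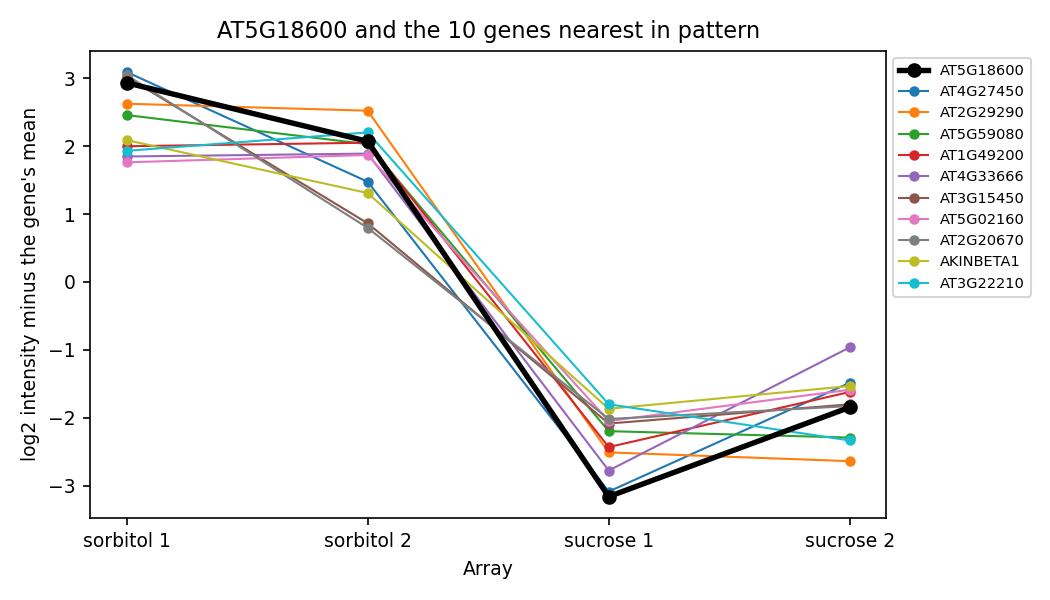
Log2 intensity minus each gene's own mean on the 4 arrays for AT5G18600 (thick black) and the 10 genes nearest to it in pattern, with lines that only join the points of a gene. AT4G27450 runs closest to AT5G18600, with a root mean square difference of 0.36, and all 10 lie above their mean on both sorbitol arrays and below it on both sucrose arrays.

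Those other CC-type glutaredoxins of Arabidopsis that were bright enough to be tested did not show the fall of AT5G18600. A list of 13 further family members had 10 with a probe set of their own and 5 bright enough to be tested. The dimmer ones, given below, went both ways: AT3G62930 and ROXY1 were lower and AT5G11930 was higher without overlap. No direction is therefore given for the whole family. Of these 5, 4 had a higher and 1 a lower value in sucrose, and 0 passed the limma test at an adjusted p under 0.05, against 1.29% of all probe sets tested (0.366% higher and 0.923% lower), while 2 had an unadjusted p under 0.05, against 20.7% of all probe sets tested. Their median log2 change was 1.42, beside 0.02 for all probe sets tested, and fell to 0.57 without sorbitol 1. Both medians of the 5 were the values of AT2G47880, whose groups overlapped. The brightness filter had left out AT3G62930 and ROXY1, which were lower, as well as AT5G11930, which was higher. AT3G62960 and ROXY2, also left out, had overlapping groups. The median thus describes the 5 tested genes and gives no direction for the 10 with a probe set.

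AT1G06830 had the highest change among the 5. It read 39.1 and 17.6 in sorbitol and 173.7 and 73.9 in sucrose, so both sucrose readings exceeded both sorbitol readings. Its log2 change was 2.11 ± 0.56 (SE), with a 95% interval before adjustment of 0.75 to 3.47, an adjusted p of 0.118 in limma and pair changes of 2.15 and 2.07. This is opposite in sign to AT5G18600 in both pairs, though the change did not pass over all probe sets.

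GRX480, a CC-type glutaredoxin known for its part in crosstalk between salicylic acid and jasmonate, read 25.6 and 17.8 in sorbitol and 36.6 and 104.0 in sucrose. Its change was 1.53 (limma adjusted p = 0.195), made up of 0.52 in pair 1 and 2.55 in pair 2. Without sucrose 1 the change was 2.28, without sucrose 2 it was 0.78 and without sorbitol 2 it was 1.27. AT2G47880 read 8.4 and 27.2 in sorbitol and 26.5 and 61.6 in sucrose, a change of 1.42 with overlapping groups (limma adjusted p = 0.307). AT1G03020 had a change of -0.74, with sucrose 2 at 32.7 beside 30.6 on sorbitol 2, and also did not pass (limma adjusted p = 0.445).

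The remaining 6 of the 10 fell outside the naming rule and were looked at after their values were seen. AT4G33040, the fifth tested gene, read 139.2 to 224.0 over the 4 arrays with a change of 0.22. ROXY1 and ROXY2 act in petal and anther development. ROXY1 read 7.4 and 12.6 in sorbitol and 2.6 and 6.4 in sucrose, lower without overlap, with 1 reading above the control level. ROXY2 read 2.9 to 3.8. AT5G11930 read 12.3 and 8.8 in sorbitol and 26.0 and 16.2 in sucrose, higher without overlap. Its change was 0.94 with dim readings raised. AT3G62960 read 8.0 to 19.4. Among the 10 genes, 3 were higher in sucrose without overlap and 2 lower, against 21.1% and 22.9% of all probe sets.

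AT3G62930 lies close to AT3G62950 and AT3G62960 on chromosome 3, the 3 genes falling within a run of 4 protein-coding genes. It read 14.6 and 6.9 in sorbitol and 0.5 and 0.9 in sucrose. Its groups did not overlap, but 3 of its 4 readings were below the control level. AT3G62950 and AT3G62960, the other 2 of this neighbourhood, had overlapping groups.

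**Figure D4:**
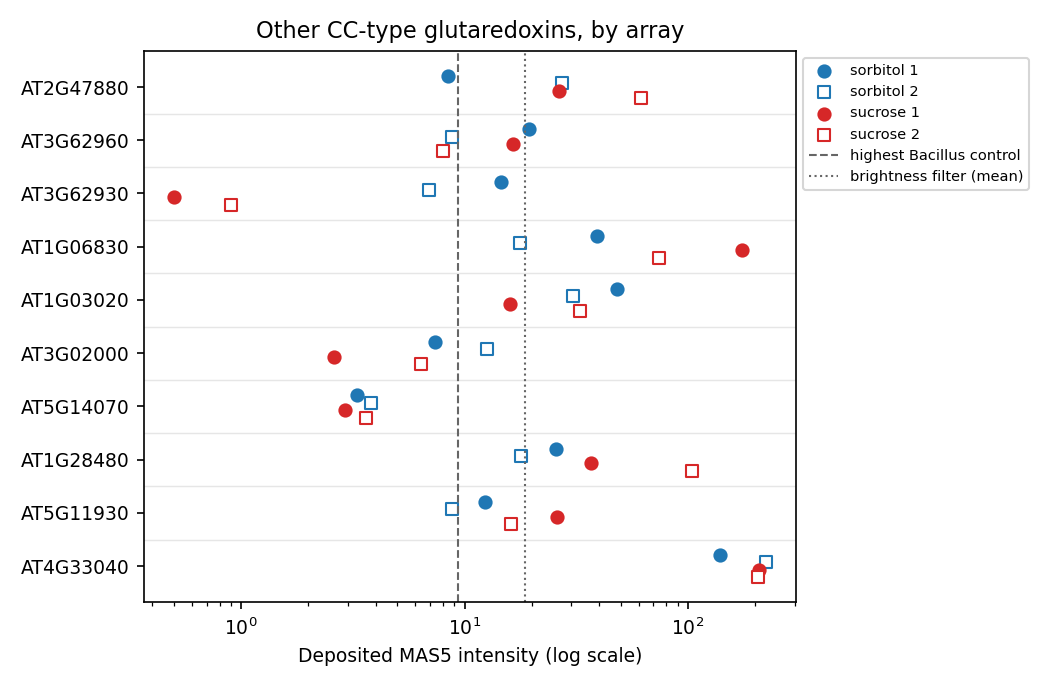
Deposited MAS5 intensity on a log axis for the 10 other CC-type glutaredoxins with a probe set, 1 point per array, with symbols and lines as in the plot of the chosen set. AT1G06830 lies higher on both sucrose arrays (173.7 and 73.9) than on both sorbitol arrays (39.1 and 17.6), and AT3G62930 lies lower on both.

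Glutaredoxins of the CPYC class had similar readings in both groups. All 5 measured members of a list of 10 CPYC and CGFS genes were CPYC, and 0 passed in limma, with 0 at an unadjusted p under 0.05. Their changes ran from -0.22 to 0.28 with a median of 0.08. GRXC1 read 654.4 and 796.3 in sorbitol and 631.2 and 610.9 in sucrose, a change of -0.22 with a 95% interval of -0.93 to 0.49. AT2G20270 had the highest change of the 5, 0.28 (interval -0.50 to 1.06), AT5G20500 had 0.18 (-0.54 to 0.89) and AT1G77370 had -0.12 (-0.98 to 0.74). These intervals, before adjustment, leave room for a change of about 2-fold in either direction.

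Among other thiol and redox genes, 17 of 64 listed were tested and 0 passed in limma, against 1.29% of all probe sets tested. An unadjusted p under 0.05 was found for 5 of the 17, against 20.7% of all probe sets tested. Of 8 thioredoxin genes 5 had lower values in sucrose, with a median of -0.61, which was -0.19 without sucrose 2. TRXF2, an f-type thioredoxin that carries light-dependent redox control to chloroplast enzymes, read 369.1 and 523.3 in sorbitol and 165.9 and 72.7 in sucrose, a change of -2.00 (limma adjusted p = 0.0922). The change of TRXF2 was -2.60 without sucrose 1, -1.41 without sucrose 2 and -1.75 without sorbitol 2. ATHM2, an m-type chloroplast thioredoxin, had -0.83, the x-type THX -0.63 and NTRC, a chloroplast thioredoxin reductase fused to a thioredoxin, -0.61. The y-type chloroplast thioredoxins TY1 and ty2, outside the naming rule, had 0.26 and -0.61 with overlapping groups. Of the 8 genes, 4 had both sucrose readings below both sorbitol readings and 1 had both above. This held for 22.9% and 21.1% of all probe sets, and for 3570 and 3568 of the 13648 probe sets tested. The mesophyll markers were lower as well, and their part in these values was not tested.

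The glutathione and ascorbate cycle list had 6 tested genes with a median of 0.39. ATMDAR2, a monodehydroascorbate reductase, read 217.5 and 231.8 in sorbitol and 606.2 and 1094 in sucrose, a change of 1.86 (limma adjusted p = 0.0728). SAPX, a stromal ascorbate peroxidase, had 1.76 (limma adjusted p = 0.0740) and the thylakoid form TAPX -0.96 (limma adjusted p = 0.172). Without sucrose 1 the changes of ATMDAR2 and SAPX were 2.28 and 1.98, and without sucrose 2 they were 1.43 and 1.53. Without sorbitol 1 they were 1.81 and 1.47. GR1, a glutathione reductase, which regenerates the glutathione that glutaredoxins draw on, had 0.39 with an interval of -0.34 to 1.13. The peroxiredoxins AT3G52960, PRXIIF and AT3G11630 had changes of 0.83, 0.23 and -0.50, and the median of these 3 was 0.23.

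The lists for nitrogen and cytokinin signals, to which CC-type glutaredoxins are known to respond, were hardly covered. The annotation used, which lists no gene for 8730 probe sets, gave a probe set to 1 of 19 nitrate response genes, AT3G25790, which was too dim to be tested at 1.6 to 9.5. It assigned none to the 15 TGA and TOPLESS genes or to the 10 catalase and superoxide dismutase genes, which were not analysed here. Of 10 type-A response regulators, which are induced by cytokinin, RR16 was tested. It read 69.2 and 126.3 in sorbitol and 6.5 and 27.1 in sucrose, a change of -2.82 ± 0.71 (SE) that did not pass (limma adjusted p = 0.106). Without sucrose 2 the change was -3.85, but the sucrose reading left was 6.5, below the control level. With that reading raised to 9.3 the change was -3.33. With all 4 arrays and dim readings raised it was -2.56. Without sorbitol 2 it was -2.38 from the readings as deposited. ARR15 read 1.8 to 8.3, below the control level on every array.

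**Figure D5:**
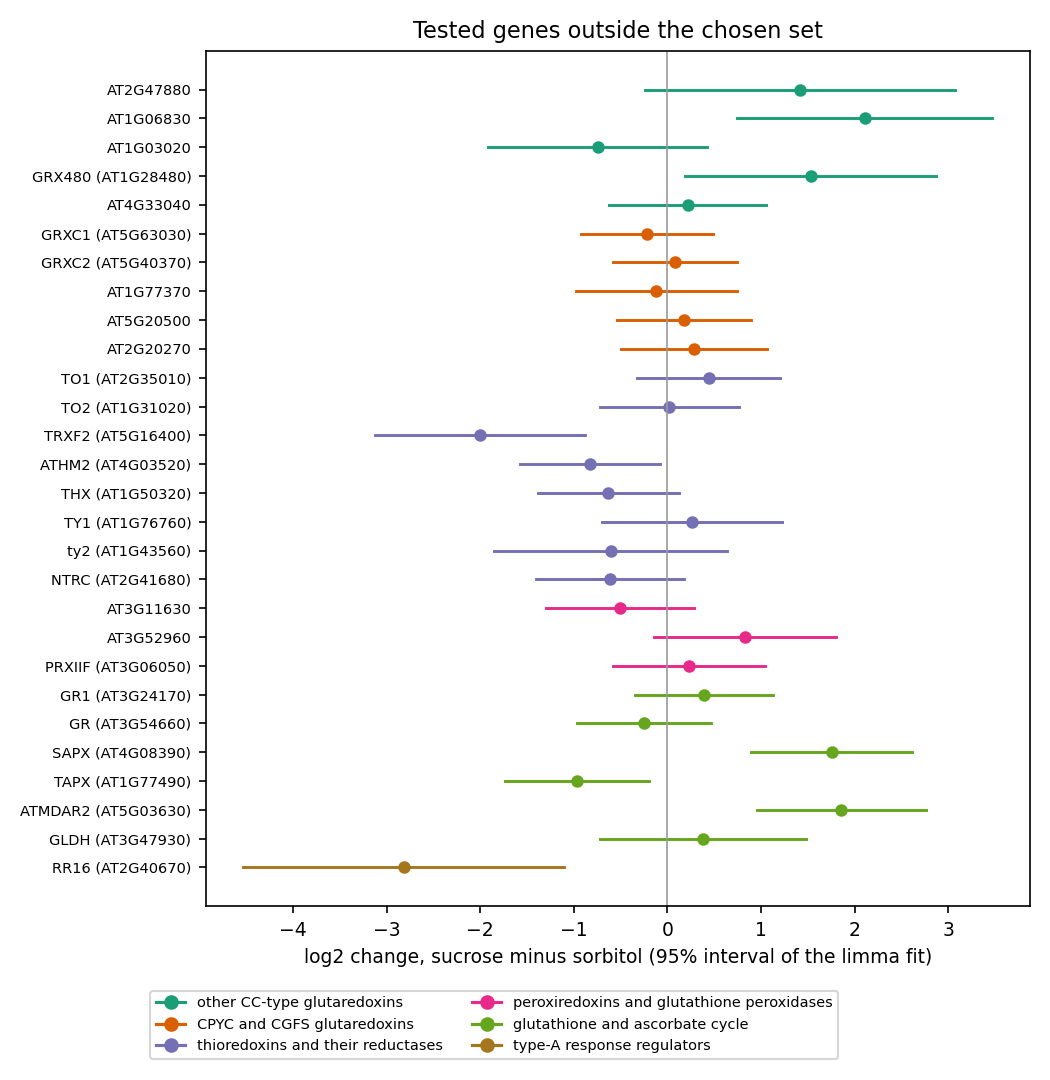
Log2 change in sucrose minus sorbitol with the 95% interval of the limma fit, before adjustment, for the 28 tested genes of the lists outside the chosen set, coloured by list. The CPYC glutaredoxins lie between -0.22 and 0.28, AT1G06830 lies at 2.11 and RR16 at -2.82, and none of the 28 passed at an adjusted p under 0.05.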

How the data were processed

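The deposited values are MAS5 intensities, a method named in the submitters' processing notes, with its settings not given in the sources used here. The 2% trimmed mean of each array was 100.0, so they were taken as linear and scaled, and not normalised again. The 64 control probe sets were left out. Log2 was taken after a floor of 0.1. The 13648 probe sets with a mean log2 value at or above the 40th percentile were tested with limma 3.58.1 in R 4.3.3 (lmFit, eBayes with trend), with Benjamini-Hochberg adjustment over all of them. With 2 arrays a group, precision is limited by their number.

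Genes came from the platform annotation (1 gene for 13513 probe sets, several for 503, none listed for 8730), with symbols and gene order from the TAIR10.1 table. The members and lists were chosen with earlier results of these data known. Named are the members, up to 4 genes per list by smallest p, and the 10 genes nearest in pattern. Genes with several probe sets took the brightest. On simulated data with 13648 probe sets, the fit for sucrose against sorbitol recovered 26% of changes of 2 log2 units, 60% of 3 and 98% of 5, with 2 false calls. Alternatives were other filters, a pseudocount, other scalings, no trend, the replicate block, raised dim values and each array left out.
Protein and promoter sequences were not analysed here.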

Additional observations from a re-analysis of the deposited data

How the results depend on the processing

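The log2 change of AT5G18600 ran from -5.66 to -4.35 when 1 array was left out. It ran from -5.07 to -4.76 under the pseudocount and the other scalings. The filters, the trend, the block and raised dim values could not move this change, so they do not test it. The fit over all probe sets, with 50 higher and 126 lower, gave other counts under other settings. There were 1 higher and 2 lower with no filter, 22 and 72 with quantile normalization, and 26 and 77 without the trend. The 60th percentile filter gave 83 higher and median centring gave 196 lower. Leaving out 1 array gave 0 to 403 higher and 0 to 545 lower, since the spread then comes from the group that keeps 2 arrays, and the lone array is assumed to vary like them. With the replicate number as a block, 1130 (8.28%) were higher and 1206 (8.84%) lower. Of the 28 tested genes of the other lists, 0 passed in either direction. With the block 5 were higher (AT2G47880, AT1G06830, GRX480, SAPX and ATMDAR2) and 2 lower (TRXF2 and RR16), and without 1 array 0 to 3 were higher and 0 to 1 lower. The labels tie no batch, plant or day to the replicate number. Arrays that carry the same number deviated together with a correlation of 0.43, and the ribosomal RNA control probe sets also split by number, the 25S one reading 2163 and 1255 on the arrays numbered 1 against 14.4 and 56.6 on those numbered 2. With 2 pairs this does not settle a pairing. With 1 array left out, the change of AT1G77370 ran from -0.44 to 0.21 and that of PRXIIF (AT3G06050) from -0.042 to 0.51, so both changed sign. Detection calls were not used here, and below 9.3 neither levels nor changes can be relied on.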
